A study of Mus musculus with 6 samples.

Results

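Immediate early genes and feedback regulators of mitogen-activated protein kinase (MAPK) signalling were examined in the olfactory epithelium of newborn mice. The set holds 52 of the 18193 genes that the expression array measured with a probe set naming a single gene. Members were chosen by symbol (the Fos, Jun and Atf3 genes, the Egr, Nr4a, Dusp, Spry and Spred families, Ier2, Ier3, Ier5, Btg2, Zfp36 and Errfi1). The probe set of each gene was selected on the highest mean over the 6 arrays, a choice that does not use the difference between the groups. Of the 52 genes, 39 were bright enough to be tested and 13 were not. The study compared wild-type with mutant pups to look for targets of KLF7, a zinc finger transcription factor of neurons. Each group held 3 pups, and the RNA of 1 pup was hybridised to 1 array. Both groups were 1 day old, came from mixed C57Black6/J and 129SvJ stock, and gave total RNA of the same tissue, which was amplified and labelled with biotin. The labels call the second group only mutant. Its allele and the sex of the pups are not given in the sources used here.

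Immediate early genes are transcribed within minutes of a stimulus, without new protein synthesis, from promoters that are already bound by serum response factor and CREB. Growth factor receptors switch on Ras and the ERK kinases, which phosphorylate these promoters' activators, while stress reaches the same genes through JNK and p38. Several products then act as brakes: dual specificity phosphatases (Dusp) strip phosphate from the kinases, Sprouty and Spred proteins act on the path from receptor to Ras and Raf, and Errfi1 (also called Mig6) blocks the EGF receptor. In neurons the same genes follow electrical activity, and in dissected tissue they also follow handling.

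To show the kind of element through which such genes are induced, RefSeq promoter windows (assembly GRCm38.p6, 250 bases before to 50 after each transcript start) were searched on both strands. Of the 52 members, 40 matched the table. The 200 bases before the start are given for 4 of them, 5′ to 3′ on the strand of the gene. Capitals mark a cyclic AMP response element (TGACGTCA, the CREB site) or a serum response element (CArG box). Errfi1 lies on the plus strand at chr4:150854870-150855069 and Dusp1 on the minus strand at chr17:26508473-26508672. Dusp5 lies on the plus strand at chr19:53528945-53529144 and Zfp36 on the minus strand at chr7:28379229-28379428.
Errfi1: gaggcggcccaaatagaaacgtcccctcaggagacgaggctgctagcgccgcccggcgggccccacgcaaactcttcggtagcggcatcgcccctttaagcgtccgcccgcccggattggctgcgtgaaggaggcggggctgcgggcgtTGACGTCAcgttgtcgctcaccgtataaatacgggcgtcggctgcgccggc
Dusp1: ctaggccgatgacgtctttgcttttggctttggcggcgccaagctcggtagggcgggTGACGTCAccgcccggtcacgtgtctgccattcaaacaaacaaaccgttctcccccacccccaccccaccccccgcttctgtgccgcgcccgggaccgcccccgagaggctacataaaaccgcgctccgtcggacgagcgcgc
Dusp5: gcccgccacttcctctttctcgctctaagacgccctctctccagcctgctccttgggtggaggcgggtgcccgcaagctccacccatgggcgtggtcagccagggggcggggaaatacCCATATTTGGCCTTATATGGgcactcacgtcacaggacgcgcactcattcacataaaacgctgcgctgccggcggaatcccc
Zfp36: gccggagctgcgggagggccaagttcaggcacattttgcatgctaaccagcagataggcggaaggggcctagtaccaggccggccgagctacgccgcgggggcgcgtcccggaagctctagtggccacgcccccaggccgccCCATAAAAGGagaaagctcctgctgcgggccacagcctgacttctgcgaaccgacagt

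The cyclic AMP response element was centred at position -47 in Errfi1 and at -139 in Dusp1, counted from the transcript start. Dusp5 carried 2 adjoining serum response elements, at -77 and -67, and Zfp36 carried 1 at -53. Over all members in the table, a serum response element was found in 3 of 40 (7.5%; Dusp5, Egr2 and Zfp36), against 1.6% of the 10195 tested genes with a promoter and 1.8% of all 27025 genes in it. The cyclic AMP response element was in 4 of 40 (10%; Btg2, Dusp1, Dusp8 and Errfi1), against 3.4% and 2.0%. The AP-1 element TGANTCA, the site of Fos and Jun dimers, was in 1 of 40 (2.5%; Dusp13), against 6.4% and 9.0%. The 2 GC-rich elements that Krüppel-like factors can bind were common everywhere. The GC box GGGCGG was in 77.5% of members, 66.6% of tested genes and 38.2% of all genes, and the box CACCC in 67.5%, 67.1% and 59.8%. Matches of these last 2 elements can share bases. A gene was counted if any of its windows held the letters, and a match is a description of sequence only. Elements outside the window or with variant letters were not counted. Fos had neither a serum response element nor a cyclic AMP response element by this rule, and Egr1 was absent from the table. The 4 promoters shown all hold a match, unlike most members.

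Levels are log2 of quantile-normalised intensity, with the lowest values raised to 3.65. The Klf7 gene itself checks the labels: its 4 probe sets were lower on every mutant array than on every wild-type array, by -3.06, -2.28, -2.23 and -2.15 in log2. The arrays numbered 3 stood apart from the rest. They scored 98.2 (wild type) and 49.5 (mutant) on the first principal component, which held 50.2% of the variance, and the other arrays scored between -42.4 and -32.3. Summed intensity per array ran from 10064207 to 14439788 before normalisation. The difference between the arrays numbered 3 and the rest varied by member, and was 0.02 for Dusp6 and -2.60 for Dusp5. The part of array number in the precision of each difference was not tested. The summed signal of 8 mature olfactory neuron markers was 5754 to 7455 on wild-type arrays and 3313 to 4079 on mutant arrays, lower in the mutant for 7 of 8. None of these markers was at the floor on all arrays. The 6 immature neuron markers summed to 8628 to 10420 and 7308 to 8302, with 5 of 6 lower in the mutant. The 6 sustentacular cell and gland markers summed to 6233 to 9902 and 8105 to 9980, with 5 of 6 higher. The 6 horizontal basal cell markers summed to 3217, 5781 and 1757 on wild-type arrays 1, 2 and 3, and to 6257, 3309 and 4447 on mutant arrays 1, 2 and 3. In the same order, 11 squamous markers summed to 402, 5502 and 589 and to 2866, 290.3 and 2027. They were high on wild-type array 2 and on mutant arrays 1 and 3. The 6 cartilage and bone markers summed to 849, 5934 and 1481 and to 3391, 1251 and 2245. Their highest sums were on wild-type array 2 and mutant array 1. In bulk tissue, fewer cells of a type and less RNA per cell cannot be told apart, and the part of cell composition in the differences of the members was not tested.

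No member passed the test between genotypes. With limma and Benjamini-Hochberg adjustment over 12703 genes, 0 members and 0 genes of the array (0%) had an adjusted p under 0.05, and no adjusted p was below 1. Before adjustment, limma gave a p under 0.05 to 2 of 39 members, Egr1 and Errfi1, both higher in the mutant. The same rule counted 76 of all genes tested (0.598%), 20 of them higher (0.157%) and 56 lower (0.441%). With the array number as a replicate block it counted 157 genes (1.24%) and the same 2 members, again with an adjusted limma p of 1 for every gene. Errfi1 was the only tested member whose 3 mutant arrays all lay above the 3 wild-type arrays, against 0.905% of all genes, and no tested member lay wholly below, against 1.95% of all genes.

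The differences of the members were small and mostly in 1 direction. The mutant mean was higher for 31 of 39 tested members (79.5%), and for 47.4% of all genes tested. The median difference, mutant minus wild type, was 0.16 in log2 for the members and -0.02 for all genes, and the members ranged from -0.21 (Dusp21) to 0.71 (Dusp15). Without sign, the median difference was 0.18 for the members and 0.20 for all genes. Between arrays of the same number, the median member was higher in the mutant by 0.16, 0.03 and 0.10 for numbers 1, 2 and 3. The labels do not say whether arrays of the same number belong together. Higher on the mutant array in every pair were 7 members (17.9%; 6.31% of all genes), namely Egr1, Errfi1, Jun, Dusp1, Dusp4, Dusp7 and Dusp10, and 1, Fos, was lower in every pair (2.56%; 9.46% of all genes). The count of higher members depended on single choices: it was 24 of 39 without wild-type array 3, 26 of 39 without both arrays numbered 3 and 24 of 38 with the mean of all probe sets of a gene. The members are not independent of each other, and no test was made of the set. Only 6 of 39 differed by more than their own standard error, and the 95% confidence intervals reached 0.35 (Jund) to 2.37 (Dusp21) to either side of the difference, with a median of 1.14. A difference smaller than this reach could not give an unadjusted limma p under 0.05. The adjusted test over all genes asked for more: Egr1 and Errfi1 exceeded their own reach and did not pass it.

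**Figure D1:**
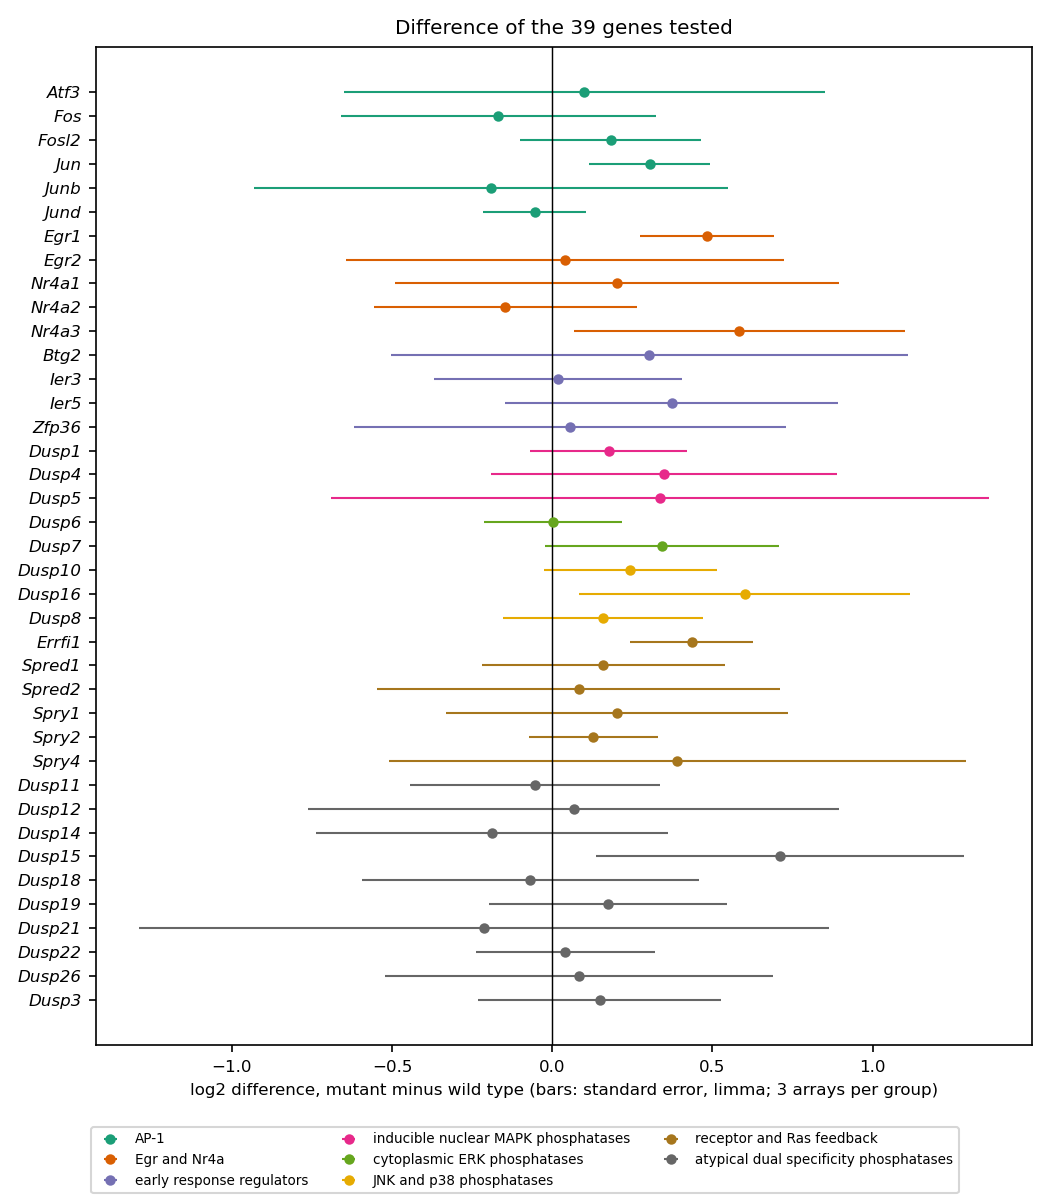
Log2 difference, mutant minus wild type, of the 39 tested members (points) with the standard error from limma (bars), coloured by role, 3 arrays per group. Most points lie right of 0 (31 of 39), and 6 lie farther from 0 than their bar is long.

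Egr and Nr4a genes encode inducible DNA-binding factors, the Egr zinc finger proteins and the orphan nuclear receptors of the Nr4a family. Of the 5 tested, 4 were higher and 1 lower, with a median difference of 0.20. Without mutant array 3, 2 of the 5 were higher, with a median of -0.01. Egr1, the most used marker of ERK signalling among them, stood at 10.75, 11.31 and 10.74 on wild-type arrays 1, 2 and 3 and at 11.47, 11.47 and 11.30 on the mutant arrays. Wild-type array 2 reached the lowest mutant array, so the groups overlapped narrowly, while the other wild-type arrays lay well below. The means were 10.93 ± 0.32 and 11.42 ± 0.10 (SD, n = 3 each). The difference of 0.48 (SE 0.21, a 1.40-fold higher level, 95% interval 0.02 to 0.95) had an unadjusted limma p of 0.042 and an adjusted p of 1. Before normalisation Egr1 had deposited intensities of 1902, 2648 and 1313 on wild-type arrays against 3078, 3206 and 2238 on mutant arrays, with the same single overlap. Over 14 alternative settings the unadjusted limma p of Egr1 ran from 0.00865 (without wild-type array 2) to 0.26 (arrays scaled by their medians) and was under 0.05 in 7.

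The other factors of this family did not separate the genotypes. Egr2, a factor of myelinating glia, stood at 5.73, 7.15 and 7.55 in wild type and 6.97, 5.87 and 7.70 in the mutant. Its difference was 0.04 (SE 0.68). Nr4a1 (Nur77), induced in neurons and T cells, was at 5.85, 5.75 and 4.91 in wild type and 5.96, 5.36 and 5.80 in the mutant. The lowest value was wild-type array 3, and the difference was 0.20 (SE 0.69). Nr4a2 (Nurr1), a factor of dopamine neurons, was at 8.65, 8.37 and 9.66 in wild type and 8.60, 9.16 and 8.49 in the mutant, a difference of -0.15 (SE 0.41). Nr4a3 (Nor1) stood between 8.20 and 8.51 on the wild-type arrays and on mutant arrays 1 and 2, and at 10.29 on mutant array 3. Its difference was 0.58 (SE 0.52), and -0.08 without that array.

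Of the feedback inhibitors of receptors and Ras, 6 of 6 tested had a higher mutant mean in the chosen probe set, with a median of 0.18. Leaving out 1 array at a time gave 4 to 6 of 6, the fewest without mutant array 3, and medians of 0.12 to 0.30. Errfi1, the inhibitor of the EGF receptor shown above with its CREB site, stood at 11.13, 10.96 and 10.78 on the wild-type arrays and at 11.23, 11.54 and 11.42 on the mutant arrays. The groups did not overlap, with a gap between wild-type array 1 and mutant array 1 that was small beside the spread within groups. The means were 10.96 ± 0.17 and 11.39 ± 0.16 (SD, n = 3 each). The difference of 0.43 (SE 0.19, a 1.35-fold higher level, 95% interval 0.01 to 0.86) had an unadjusted limma p of 0.0446 and an adjusted p of 1. In the deposited intensities Errfi1 was at 2493, 2101 and 1350 in wild type and 2576, 3353 and 2393 in the mutant, where mutant array 3 lay below wild-type array 1. The unadjusted limma p of Errfi1 was under 0.05 in 5 of 14 alternative settings and reached 0.321. Its second probe set, a dimmer one, differed by 0.48 with overlapping groups, and by -0.25 without wild-type array 2.

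Sprouty genes, transcribed in response to ERK, varied more between arrays than between genotypes in the chosen probe sets. Spry1 stood at 6.94, 6.59 and 6.28 in wild type and 6.60, 6.88 and 6.95 in the mutant, a difference of 0.20 (SE 0.53). Spry2 stood at 10.75, 10.67 and 11.08 in wild type and at 10.93, 10.95 and 11.01 in the mutant. All mutant values lay within the wild-type range, and the difference was 0.13 (SE 0.20). A dimmer probe set of Spry2 gave 9.31, 8.71 and 7.56 in wild type and 9.66, 9.35 and 9.31 in the mutant. Its difference was 0.91 with almost no gap between the groups, and 0.44 without wild-type array 3, which was the highest of its group in the first probe set and the lowest in the second. Spry4 ranged widely, at 4.52, 6.13 and 8.30 in wild type and 6.32, 6.16 and 7.64 in the mutant. Both arrays numbered 3 were the highest, and the difference was 0.39 (SE 0.90). Without wild-type array 3 it was 1.41, and without wild-type array 1 it was -0.50. A dimmer probe set of Spry4, named after its values were seen, went the other way. It gave 6.23, 5.96 and 6.27 in wild type and 5.88, 4.78 and 5.01 in the mutant. Its groups did not overlap, and the difference was -0.93, or -1.24 to -0.70 with 1 array left out. Another dimmer probe set of Spry4 differed by 0.03. Spred1, the Ras pathway inhibitor, stood at 10.81, 10.78 and 9.63 in wild type and 10.80, 11.02 and 9.86 in the mutant. Both arrays numbered 3 were low, and the genotype difference was 0.16 (SE 0.38), or -0.23 without wild-type array 3. Spred2 went the other way on those arrays, at 7.37, 6.27 and 8.42 in wild type and 7.21, 6.85 and 8.24 in the mutant, and differed between genotypes by 0.08 (SE 0.63).

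**Figure D2:**
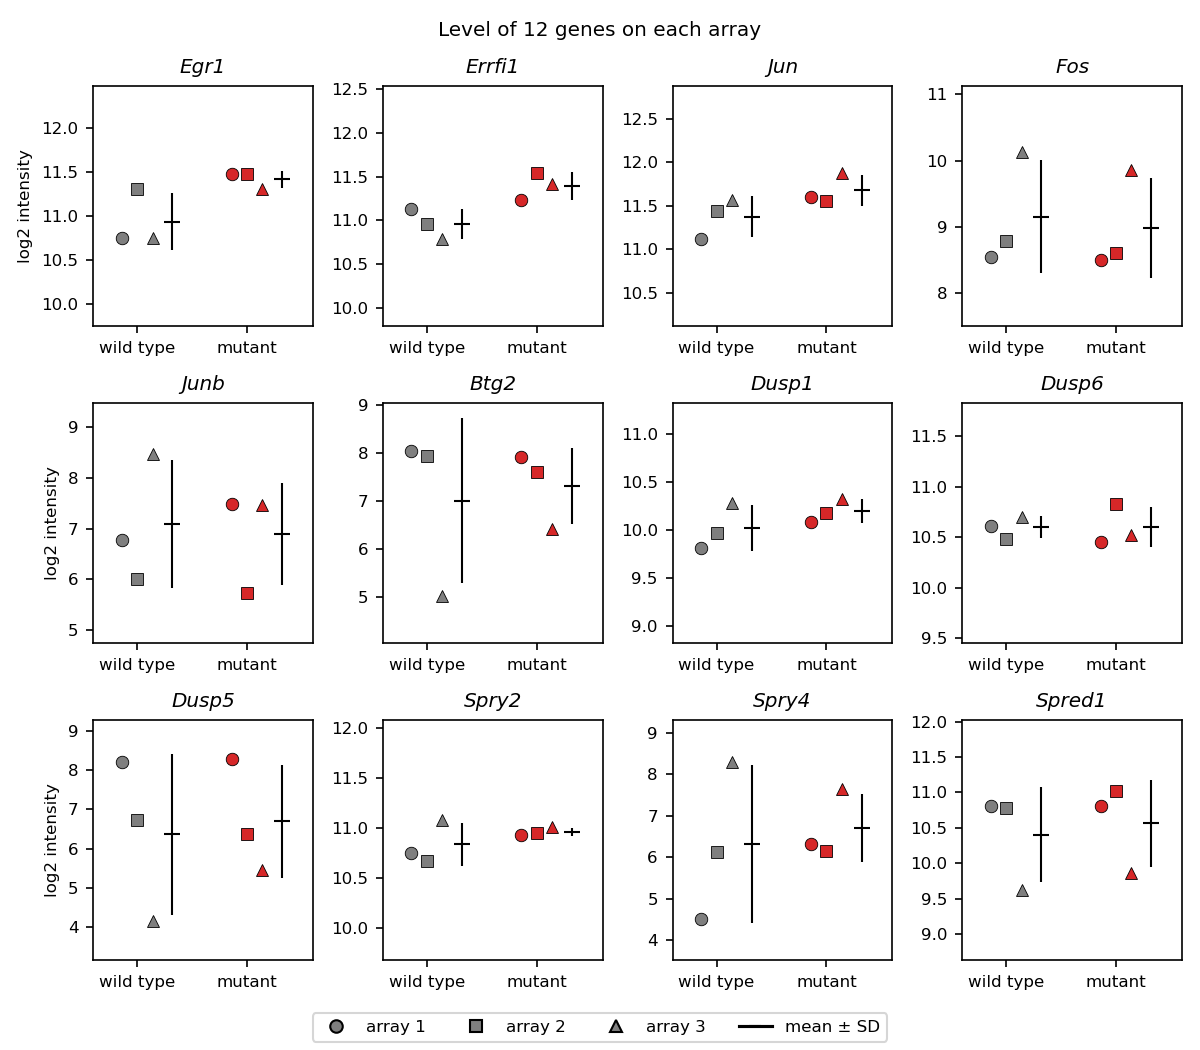
Log2 normalised intensity of 12 members on each of the 6 arrays (circle, square and triangle for arrays 1, 2 and 3; grey for wild type, red for mutant), with the mean and SD of 3 arrays beside them. Every panel has its own log2 range. Errfi1 separates the groups, Egr1 overlaps by 1 wild-type array, and in Fos, Btg2, Spry4 and Spred1 the triangles of both genotypes stand apart from the other arrays.

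AP-1 is the dimer of Fos and Jun proteins, with Atf3 as a stress-induced partner. Of the 6 tested members, 3 were higher and 3 lower, with a median of 0.02. Leaving out 1 array at a time gave 2 to 5 of 6 higher and medians of -0.21 (without wild-type array 1) to 0.35 (without wild-type array 3). Jun stood at 11.12, 11.44 and 11.57 in wild type and 11.60, 11.56 and 11.88 in the mutant. It was higher in each pair of arrays and overlapped only where mutant array 2 lay just below wild-type array 3. The difference was 0.30 (SE 0.19, 95% interval -0.11 to 0.72, unadjusted limma p of 0.136). Deposited intensities of Jun read 2461, 2879 and 2305 on wild-type arrays against 3357, 3397 and 3354 on mutant arrays, apart before normalisation. A second probe set of Jun differed by 0.17.

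Fos, the classical marker of recent stimulation, did not follow Jun. It stood at 8.55, 8.79 and 10.13 in wild type and 8.50, 8.61 and 9.86 in the mutant, and its difference was -0.17 (SE 0.49, 95% interval -1.25 to 0.91). Both arrays numbered 3 lay more than 1 log2 unit above the others of their genotype. Junb stood at 6.78, 6.01 and 8.47 in wild type and 7.48, 5.74 and 7.46 in the mutant, a difference of -0.19 (SE 0.74). Array 2 was the lowest in both genotypes. Jund, the Jun gene with steady expression in most cells, was at 11.83, 12.05 and 11.80 in wild type and 11.99, 11.78 and 11.75 in the mutant, a difference of -0.05 (SE 0.16). Atf3 stood at 4.59, 6.51 and 6.41 in wild type and at 5.46, 5.81 and 6.53 in the mutant. Wild-type array 1 was low, and the difference was 0.10 (SE 0.75). Fosl2, a Fos-related factor, stood at 9.15, 9.52 and 9.54 in wild type and at 9.78, 9.41 and 9.55 in the mutant. Mutant array 1 was highest and wild-type array 1 lowest, and the difference was 0.18 (SE 0.28).

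Early response regulators outside the DNA-binding families were also spread over arrays rather than genotypes, with 4 of 4 tested higher and a median of 0.18. Without wild-type array 3, 0 of the 4 were higher and the median was -0.17. Btg2, an antiproliferative gene of neural progenitors, stood at 8.04, 7.95 and 5.02 in wild type and 7.91, 7.60 and 6.40 in the mutant. Both arrays numbered 3 were lowest, and the difference of 0.30 (SE 0.81) came from the third pair alone. Without wild-type array 3 the difference of Btg2 was -0.71. Zfp36 (tristetraprolin), which triggers decay of AU-rich messenger RNAs including those of early genes, stood at 6.32, 6.09 and 5.37 in wild type and 5.68, 6.72 and 5.56 in the mutant, a difference of 0.06 (SE 0.67). Ier5 was lowest on wild-type array 3 and highest, at 8.65, on mutant array 3. Its difference was 0.37 (SE 0.52), and that of Ier3 was 0.02 (SE 0.39).

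No MAPK phosphatase passed the test. Of the inducible nuclear phosphatases, Dusp1, Dusp4 and Dusp5 were tested and had higher mutant means, with a median of 0.34, and the dim Dusp2 differed by -0.41. Without wild-type array 3, 2 of the 3 were higher, with a median of 0.21. Dusp1, which acts on p38, JNK and ERK, stood at 9.82, 9.96 and 10.28 in wild type and 10.08, 10.18 and 10.33 in the mutant. It was higher in every pair, the groups overlapped, and the difference was 0.18 (SE 0.25). Dusp4 stood at 7.03, 6.39 and 6.28 in wild type and 7.04, 7.09 and 6.61 in the mutant, again higher in every pair, by 0.35 (SE 0.54). Dusp5, the nuclear ERK phosphatase with 2 serum response elements, was at 8.21, 6.74 and 4.14 in wild type and 8.28, 6.37 and 5.46 in the mutant. Array 3 was the lowest in both genotypes, and its difference was 0.34 (SE 1.03). Without wild-type array 3 the difference of Dusp5 was -0.80, and without mutant array 1 it was -0.43.

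Dusp6, the cytoplasmic ERK phosphatase whose level is widely read as a gauge of ERK output, did not differ measurably. It stood at 10.61, 10.49 and 10.70 in wild type and 10.45, 10.83 and 10.53 in the mutant. The difference was 0.00 (SE 0.22, 95% interval -0.47 to 0.48). Dusp7, its close relative, stood at 8.46, 7.89 and 8.35 in wild type and 8.76, 8.45 and 8.52 in the mutant. It was higher in every pair, by 0.34 (SE 0.37), with mutant array 2 just below the highest wild-type array. A dimmer probe set of Dusp7 differed by 0.10 and was lower in the mutant in pairs 1 and 3. The dim Dusp9, the remaining gene of this subgroup, differed by -0.49. Of the phosphatases of JNK and p38, Dusp10 stood at 9.57, 9.46 and 9.45 in wild type and 9.76, 9.97 and 9.48 in the mutant, higher in every pair, by 0.24 (SE 0.27). Dusp8 differed by 0.16 (SE 0.31). Dusp16 stood at 8.51, 8.60 and 6.78 in wild type and 8.93, 8.38 and 8.38 in the mutant, a difference of 0.60 (SE 0.52). Wild-type array 3 was alone in being low, and without it the difference of Dusp16 was 0.01.

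Atypical dual specificity phosphatases, a family that shares the catalytic fold and includes members with other substrates than MAPK, showed no common direction, with 6 of 10 higher and a median of 0.05, against 4 of 10 and -0.16 without wild-type array 3. Dusp15 had the largest difference of all tested members. It stood at 6.45, 6.58 and 6.54 in wild type and 7.58, 6.29 and 7.84 in the mutant, where arrays 1 and 3 were above and array 2 below every wild-type array. The difference was 0.71 (SE 0.58, a 1.64-fold higher level, unadjusted limma p of 0.242). Without mutant array 2 the difference of Dusp15 was 1.20, with an unadjusted limma p of 0.0479. Dusp14 stood at 7.58, 6.93 and 6.68 in wild type and 7.48, 6.36 and 6.78 in the mutant, a difference of -0.19 (SE 0.55). The remaining members, Dusp3, Dusp11, Dusp12, Dusp18, Dusp19, Dusp21, Dusp22 and Dusp26, differed by -0.21 to 0.17.

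The 13 members below the level required for testing (a mean of 5.19) were Fosb, Fosl1, Egr3, Egr4, Ier2, Dusp2, Dusp9, Dusp13, Dusp23, Dusp27, Dusp28, Spred3 and Spry3. In 12 of them at least 1 array was at the floor, and their differences, -0.66 to 1.00, carry no test. Fosb, induced in neurons by repeated activity, stood at 3.65, 5.12 and 3.65 in wild type and 5.21, 3.92 and 3.65 in the mutant, with 3 arrays at the floor. Ier2 stood at 4.98, 4.84 and 3.65 in wild type and 5.72, 3.65 and 3.65 in the mutant, also with 3 at the floor. Fosl1, Dusp2 and Dusp9 owed their means to the arrays numbered 3. Fosl1 was at 6.81 and 5.84 on those of wild type and mutant, Dusp2 at 7.31 and 6.03, and Dusp9 at 7.03 and 6.15, while on the other 4 arrays none of them exceeded 5.17. Dusp13 was at the floor on all wild-type arrays and on mutant array 1, and reached 4.66 and 5.62 on mutant arrays 2 and 3. Of the 13, 6 were higher in the mutant mean. The members nearest the threshold were Nr4a1 (mean 5.61) and Atf3 (mean 5.88) inside it, and Dusp2 (mean 5.11) and Fosl1 (mean 5.06) outside it.

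Most members differed more between the arrays numbered 3 and the other 4 than between genotypes. These 2 arrays had stood apart in the same data, so a large difference was to be foreseen. The split also sets 2 arrays against 4, where genotype sets 3 against 3. The arrays numbered 3 differed from the other 4 by a median of 0.49 without sign over the 39 members, against 0.18 for genotype, and the number-3 difference was the larger one in 30 members (76.9%). Over all genes tested the same values were 0.52, 0.20 and 77.6%. Both arrays numbered 3 lay above the other 4 in 7 members (17.9%; 18.9% of all genes), among them Spry4 (2.19), Fos (1.38), Egr2 (1.20) and Dusp1 (0.29). Both lay below in 11 (28.2%; 19.1% of all genes), among them Dusp5 (-2.60), Dusp12 (-2.30), Btg2 (-2.16) and Spred1 (-1.11). Fos and Btg2, both early genes, thus lay on opposite sides. Wild-type array 3 was the lowest of the 6 arrays for 16 members (41%, against 28.6% of all genes). The mutant arrays 1, 2 and 3 were the highest for 8, 9 and 9 members (20.5%, 23.1% and 23.1%). For all genes tested these shares were 15.5%, 11.6% and 15.4%. The wild-type SD was the larger one in 28 of 39 members (71.8%; 57.6% of all genes). The part of array 3 in the count of higher members was not tested beyond leaving it out.

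**Figure D3:**
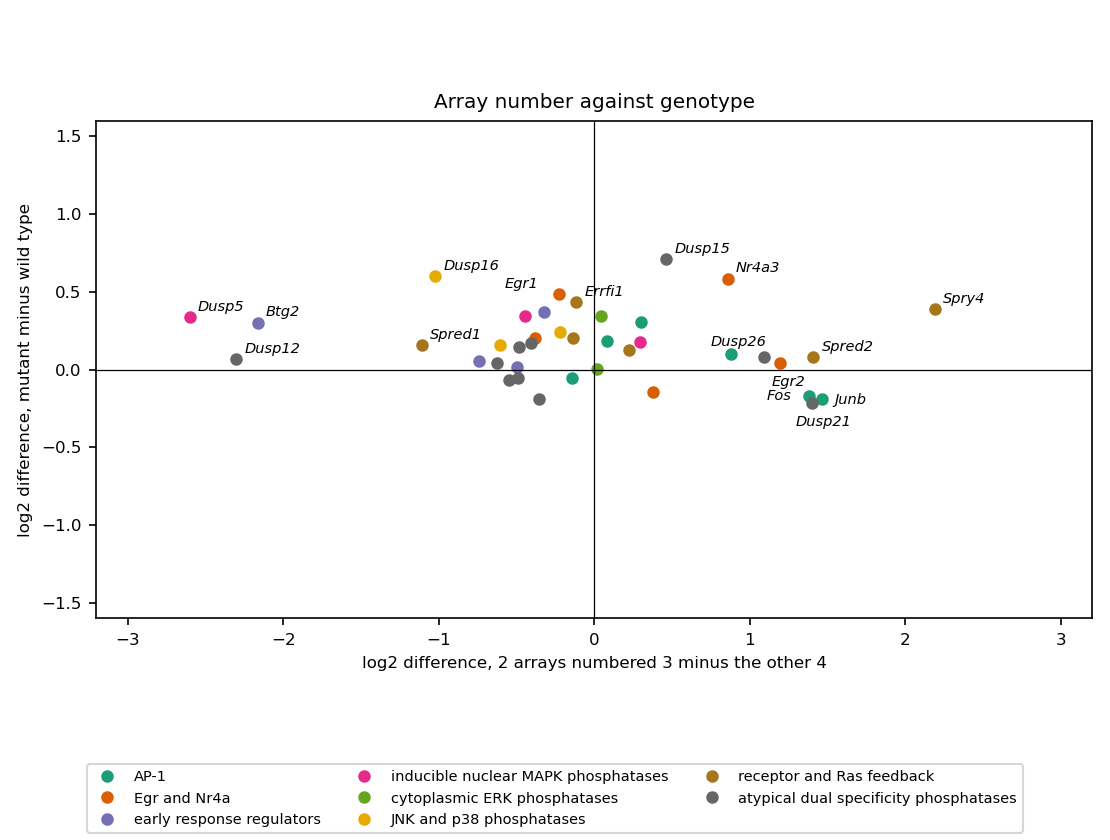
Log2 difference of the 2 arrays numbered 3 minus the other 4 (horizontal axis) against log2 difference of mutant minus wild type (vertical axis) for the 39 tested members, coloured by role, with the same scale on both axes. Points spread from -2.60 (Dusp5) to 2.19 (Spry4) along the horizontal axis and from -0.21 to 0.71 along the vertical axis.

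**Figure D4:**
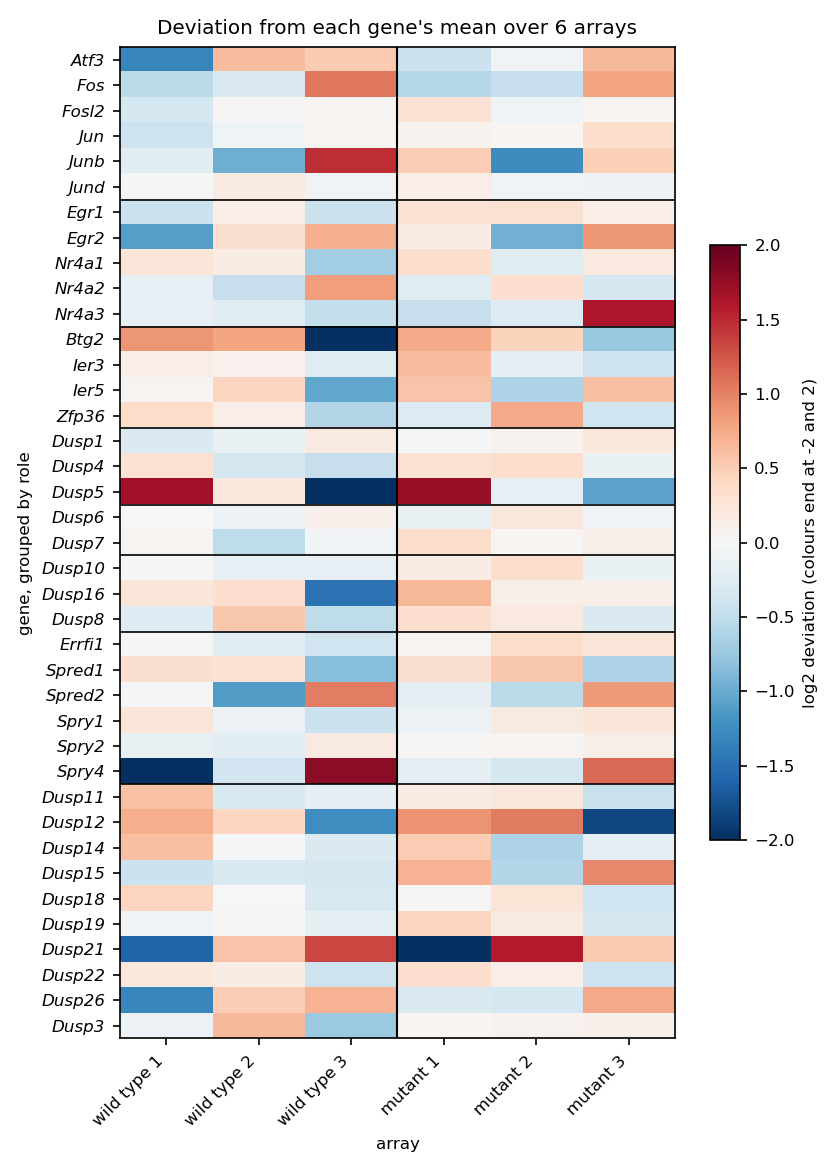
Deviation of each tested member from its own mean over 6 arrays, in log2 (red above, blue below, colours ending at -2 and 2), with genes in rows grouped by role and arrays in columns. Dusp5, Btg2 and Dusp12 are blue and Spry4 is red on both arrays numbered 3, and Dusp21 on mutant array 1, at a level of 3.65, is among the strongest blues.

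For several members the difference depended on the probe set that was read, and the probe sets named here as examples were picked after their values were seen. The 52 members had 102 probe sets in all, and 25 members had a single one. Of 19 members with more than 1 probe set above the dim level, 7 gave differences of both signs: Btg2, Dusp8, Egr2, Ier5, Jund, Spred1 and Spry4. Spred1 had 8 probe sets. In 1 of them both arrays numbered 3 were high, at 10.83 (wild type) and 10.20 (mutant), where the chosen one was low. In another, both were again the highest, at 9.99 (wild type) and 9.77 (mutant). Dusp10 differed by 0.24 in the chosen probe set and by 1.20 in the other, where wild-type array 3 was at the floor. Without that array the second probe set of Dusp10 differed by -0.31.

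No other gene of the pathway passed the test: in each of 8 lists of its genes, 0 passed the adjusted threshold and 0 had an unadjusted limma p under 0.05. All 3 tested ErbB ligands were lower, with a median of -0.35: Btc by -0.37 (SE 0.62), Tgfa by -0.35 (SE 0.65) and Hbegf, itself an early gene, by -0.13 (SE 0.50). Btc was at 0.03 without mutant array 3 and Hbegf at 0.22 without wild-type array 3. Among receptor tyrosine kinases 8 of 12 were higher (median 0.09), and in the cascade from Ras to ERK 8 of 12 (median 0.07), of which Sos1, the activator of Ras, differed by 0.35 (SE 0.29). Leaving out wild-type array 3 brought Sos1 to 0.07. Rps6ka3, an ERK-activated kinase, differed by 1.18 (SE 0.78) through wild-type array 3, at 5.61, against 8.94 to 9.28 on the other 5 arrays. Without that array Rps6ka3 differed by 0.01. In the JNK and p38 cascade 3 of 12 were higher (median -0.07), with the neuronal JNK gene Mapk10 at -0.35 (SE 0.34).

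Regulators and other targets showed no common direction. Of the upstream transcription factors 5 of 12 were higher (median -0.05), and Mrtfa, the actin-regulated partner of serum response factor, differed by -0.62 (SE 0.73). Other ERK targets were 3 of 5 higher (median 0.10), with Etv4 at 0.22 (SE 0.70), Etv5 at 0.14 (SE 0.34) and Ccnd1 at -0.12 (SE 0.24). Of 29 other immediate early genes 14 were higher and 15 lower (median -0.04). Cebpb differed by 0.53 (SE 0.30), Ccn1 by 0.43 (SE 0.30) and Sgk1 by 0.27 (SE 0.19), all with overlapping groups. Leaving out 1 array brought Cebpb to 0.20 (without wild-type array 3), Ccn1 to 0.17 (without wild-type array 1) and Sgk1 to 0.07 (without wild-type array 2). Rgs2, which limits G protein signalling, was the only one of the 29 whose groups did not overlap (3.45%, against 1.95% of all genes for lower and 0.905% for higher), at -0.48 (SE 0.37). It was named after its values were seen, and 1 gene of 29 is near the background. Heat shock genes, a sign of stress in handled tissue, were 6 of 11 higher with a median of 0.00, and Hspa1b differed by 0.12 (SE 0.21). The inducible Hspa1a, whose mean of 5.15 lay just below the level required for testing, stood at 4.07, 5.03 and 4.82 in wild type and 5.18, 5.93 and 5.89 in the mutant. Its groups did not overlap and differed by 1.03, with no test, and it was named after its values were seen.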

How the data were processed

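Expression was measured on 6 arrays, 3 wild-type and 3 mutant. The authors deposited a table of linear intensities, 1 value for each of 45037 probe sets on every array. Their probe summary, background correction and scaling are not given in the sources used here. Of the values, 5.39% were 0. Groups and replicate numbers came from the sample titles.

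Array quartiles differed by up to 0.69 in log2, so arrays were quantile normalised. Values were raised to the 20th percentile (an intensity of 12.56) and log2 was taken, which understates differences of dim genes. Gene symbols came from the array's GEO annotation, and only those with 1 symbol (34945) were used, keeping per gene the one with the highest mean. Genes with a mean in the lowest 40% (below 5.19) were not tested. limma 3.58.1 in R 4.3.3 (eBayes with intensity trend, two-sided, Benjamini-Hochberg, threshold 0.05) compared the groups. The procedure was checked on simulated data. Their noise was independent between arrays and its spread was capped at the median, so the check does not measure precision in these data. An exact permutation test of 3 against 3 arrays cannot give a p below 0.1 and was not used. Promoters came from RefSeq.

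The members, role groups, pathway lists and marker lists were chosen with earlier results of these data known. Named with a value on every array were a list of 18 members and the 5 tested members with the smallest unadjusted p in each direction; of each pathway list up to 3 tested genes with the smallest p were named. Values of other members, Rgs2 and Hspa1a were added after they were seen. Deviations from the group means correlated at 0.47, 0.18 and 0.56 between arrays of the same number. All were above 0.1, the bar set for the replicate block, and arrays of 1 number were treated as pairs in that alternative. Wild-type array 2 correlated more with mutant array 1 (0.22) than with mutant array 2. These values therefore do not establish the pairs. The alternatives tried were another scaling, floor, filter, probe set rule and variance model, array weights, the replicate block, and leaving out arrays. Leaving out single arrays for role groups, other probe sets and pathway genes was chosen after seeing the data.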

Additional observations from a re-analysis of the deposited data

How the results depend on the processing

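Over 14 alternatives, limma called 0 members and 0 genes after adjustment, with a smallest adjusted p of 1 in each. At an unadjusted p under 0.05, limma counted 76 genes as reported and 43 (arrays scaled by their medians) to 212 (without wild-type array 2) otherwise; with the paired fit, the replicate number as a replicate block, it counted 157. The median difference of the members stayed above 0, from 0.09 (mean of all probe sets) to 0.22 (without wild-type array 2), and was 0.16 with the replicate block and 0.11 without both arrays numbered 3, a choice of 2 against 2. The block ended no call, since none was made. Of 21 named and tested members, 8 kept their sign throughout (Dusp1, Dusp4, Dusp15, Dusp16, Egr1, Errfi1, Jun and Spry2), and 13 had the opposite sign in at least 1 alternative, Fos, Junb, Spred1 and Zfp36 in 4 each; the cause was not tested. Leaving out 1 array at a time gave differences of 0.39 to 0.67 for Egr1 and 0.35 to 0.52 for Errfi1. With 3 arrays per group the precision is limited, and dim members have only a bound at the floor. Leaving out 1 array, an alternative chosen after seeing the data, turned the sign of role medians. Early response regulators went to -0.17 and atypical phosphatases to -0.16 without wild-type array 3. Egr and Nr4a genes went to -0.01 and AP-1 genes to -0.11 without mutant array 3. AP-1 genes also went to -0.21 without wild-type array 1, and atypical phosphatases to -0.05 without mutant array 1.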
